A study of Mus musculus with 2 samples.

Results

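In MEL cells, 695 of 20807 protein-coding genes carried no peak of trimethylation of histone H3 at lysine 4 (H3K4me3) at their 5'-most transcript start and carried a peak at an internal start. They were chosen from peak calls: no replicated peak lay within 1000 bp of the 5'-most start, and a replicated peak lay within 1000 bp of another annotated start over 2000 bp downstream. The genes are those on chromosomes 1 to 19 of the GENCODE M21 annotation, on the mouse build GRCm38 (mm10). They made up 3.34% of those protein-coding genes. Only 11270 of the genes have an annotated start over 2000 bp downstream, and 6.17% of these 11270 were marked only internally (exact Clopper-Pearson 95% interval 5.73 to 6.63%, for counting error only). Of the same 11270 genes, 6408 (56.9%) were marked at the 5'-most start, 4157 had no marked start, and 10 were marked only at a start up to 2000 bp downstream.

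The study mapped H3K4me3 by chromatin immunoprecipitation and sequencing (ChIP-seq) in MEL, a mouse erythroleukaemia cell line at a stage like that of red cell precursors. It holds 2 replicates of 1 group, with no treatment, genotype or time contrast, and both are labelled with a single source sample, so the spread between them may be technical. The authors deposited a peak list for each replicate, a pooled list and the replicated list used for the choice, which held 37387 peaks. The cells' label was checked on marker genes: 10 of 10 erythroid markers, among them Gata1 and Klf1, and 0 of 8 markers of T cells, hepatocytes, neurons and muscle had a peak at a start. The T cell markers in that check were only Cd3e and Cd3g, and the T cell genes Cd3d and Lck, members described below, did have a peak at an internal start. Without read counts in the lists, the depth behind a missing peak is unknown.

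Many mammalian genes have alternative promoters, used in different tissues or stages, which can change the first exon, the untranslated leader or the amino end of the protein. H3K4me3 lies on the nucleosomes beside active and poised promoters, and CpG islands, stretches in which the CG dinucleotide has escaped loss, are its most common sites. The 5'-most annotated start of a gene is a property of the annotation and need not be the start used in a given cell. A start without a peak here is a start at which none was called.

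The sequences just before both starts show how different the CpG content of the members' 2 starts can be. The 100 bases before each start were taken from GRCm38 and are written 5' to 3' on the gene's strand, with each CG dinucleotide in capitals. Ets1, Macf1 and Tpm3 are shown because the start without a peak was poor in CG and the marked internal start lay in a high-CpG window. Ank1 and Add2 are shown because they go the other way, and Mef2c because both starts were low-CpG.

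Ets1, 5-prime-most start, chr9:32636121-32636220, plus strand: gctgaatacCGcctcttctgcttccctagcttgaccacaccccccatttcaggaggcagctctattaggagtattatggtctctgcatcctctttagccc
Ets1, internal start, chr9:32695922-32696021, plus strand: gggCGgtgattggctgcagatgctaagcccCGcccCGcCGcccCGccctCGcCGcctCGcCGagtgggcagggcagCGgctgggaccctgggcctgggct
Macf1, 5-prime-most start, chr4:123684361-123684460, minus strand: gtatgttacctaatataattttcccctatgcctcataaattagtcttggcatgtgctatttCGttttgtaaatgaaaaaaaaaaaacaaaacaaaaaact
Macf1, internal start, chr4:123664753-123664852, minus strand: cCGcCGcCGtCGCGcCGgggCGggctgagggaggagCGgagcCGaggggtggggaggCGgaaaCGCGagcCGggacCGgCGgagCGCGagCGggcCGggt
Tpm3, 5-prime-most start, chr3:90072549-90072648, plus strand: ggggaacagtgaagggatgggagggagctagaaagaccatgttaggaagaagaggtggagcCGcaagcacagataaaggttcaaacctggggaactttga
Tpm3, internal start, chr3:90079440-90079539, plus strand: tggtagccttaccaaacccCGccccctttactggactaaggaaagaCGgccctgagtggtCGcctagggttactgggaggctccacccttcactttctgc
Ank1, 5-prime-most start, chr8:22974744-22974843, plus strand: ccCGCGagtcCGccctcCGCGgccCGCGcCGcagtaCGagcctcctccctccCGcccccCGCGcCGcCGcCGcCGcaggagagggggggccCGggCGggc
Ank1, internal start, chr8:23034999-23035098, plus strand: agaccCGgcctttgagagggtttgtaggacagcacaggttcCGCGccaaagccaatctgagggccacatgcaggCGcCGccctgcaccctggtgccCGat
Add2, 5-prime-most start, chr6:86028581-86028680, plus strand: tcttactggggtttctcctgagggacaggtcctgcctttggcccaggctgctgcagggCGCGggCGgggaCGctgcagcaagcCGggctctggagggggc
Add2, internal start, chr6:86077957-86078056, plus strand: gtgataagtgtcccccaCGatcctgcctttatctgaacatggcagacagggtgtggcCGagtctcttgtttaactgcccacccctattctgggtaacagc
Mef2c, 5-prime-most start, chr13:83503934-83504033, plus strand: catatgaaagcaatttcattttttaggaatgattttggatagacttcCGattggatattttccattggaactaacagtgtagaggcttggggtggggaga
Mef2c, internal start, chr13:83572248-83572347, plus strand: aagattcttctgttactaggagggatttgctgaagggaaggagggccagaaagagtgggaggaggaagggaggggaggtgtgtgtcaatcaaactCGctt

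Before Ets1, the count of CG dinucleotides in these 100 bases rises from 1 at the 5'-most start to 10 at the internal start. Before Macf1 the counts are 1 and 19, and before Tpm3 they are 1 and 3. Before Ank1 they are 18 and 6, before Add2 5 and 2, and before Mef2c 1 and 1. The class of each start below comes from 500 bases on either side of it and not from these shorter stretches. It rests on the CpG ratio, the number of CG dinucleotides observed over the number expected from the C and G content. A start is called high-CpG where the ratio reaches 0.6 and the GC share reaches 0.5, low-CpG where the ratio is below 0.4, and intermediate otherwise.

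Genes of a group named for the red cell membrane and its cytoskeleton were among the members. It is a list of symbols: spectrins, ankyrins, adducins, tropomyosins, protein 4.1 relatives, membrane transporters and the linker Macf1. Relatives such as Ank3 and Epb41l1 are counted, so it is not limited to genes particular to red cells. The group held 8 members among 34 genes with an internal start (23.53%, beside 6.17% of all such genes). The groups were drawn up with results of these data known, so this share is a description. The 8 had from 3 annotated starts (Slc14a1) to 37 (Ank3), beside a median of 7 for all members. Ank1 encodes ankyrin-1, which anchors the spectrin network to the red cell membrane. Its 5'-most start on chromosome 8 had a CpG ratio of 0.992 and no peak, and the nearest replicated peak lay 52910 bp from it. The marked start lay 60255 bp downstream in an intron, with a ratio of 0.445 and a peak at chr8:23035108-23036716. The signal value of a peak is the authors' own score, and it is comparable only within a list. For Ank1 it was 13.4 in the replicate 1 list and 11.3 in the replicate 2 list, higher than 91.5% and 72.9% of the peaks of these lists. Both replicates thus placed the peak above the middle of their lists, and neither listed a peak at the 5'-most start. For the transcripts compared, the first coding base of the internal start lay 60095 bp further downstream.

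Add2 encodes beta-adducin, which caps actin and joins it to spectrin. On chromosome 6 its intermediate 5'-most start (CpG ratio 0.561) had no peak, and a low-CpG start 49376 bp downstream (0.119) was marked by a peak 2566 bp wide. Its signal values were 12.0 in replicate 1 and 10.5 in replicate 2. The 5'-most start of Add2 has no coding transcript in the annotation, and the internal start has. Epb41l1, which encodes a protein 4.1 relative, was marked at a high-CpG start 54625 bp inside the gene, and its 5'-most start was high-CpG too (0.736 and 0.809). Its replicates stood far apart in rank: the signal of 5.78 exceeded 55.1% of replicate 1 peaks and the signal of 27.7 exceeded 99.1% of replicate 2 peaks.

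The tropomyosins Tpm1 and Tpm3, which run along actin filaments and are made in long and short forms from different starts, were both members. In Tpm3, on chromosome 3, the CpG ratio was 0.132 at the 5'-most start and 0.698 at the internal start 6891 bp downstream. The internal start lay between peaks on either side, and the stronger had signals of 10.13 in replicate 1 and 10.02 in replicate 2. In Tpm1, on chromosome 9, the distance was 5444 bp, both starts were high-CpG (0.614 and 0.789) and the signals were 9.62 and 10.2. In both genes the first coding base of the internal transcripts lay further downstream, by 5423 bp in Tpm1 and by 6995 bp in Tpm3.

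The remaining members of the group were Macf1, Ank3 and Slc14a1. Macf1 encodes a large linker of microtubules and actin, and its marked start lay 19608 bp downstream, with CpG ratios of 0.273 and 0.928 and signals of 8.22 in replicate 1 and 12.4 in replicate 2. Ank3, which encodes ankyrin-G, had a weak and narrow peak (306 bp, signals 3.85 and 5.398) at a low-CpG start 386741 bp inside the gene, while its 5'-most start was high-CpG. Slc14a1, the urea transporter of the red cell, was marked 18693 bp downstream and was low-CpG at both starts (0.271 and 0.357). In all 8 genes of the group the marked internal start lay in an intron of another transcript, and no replicate list held a peak at the 5'-most start.

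**Figure D1:**
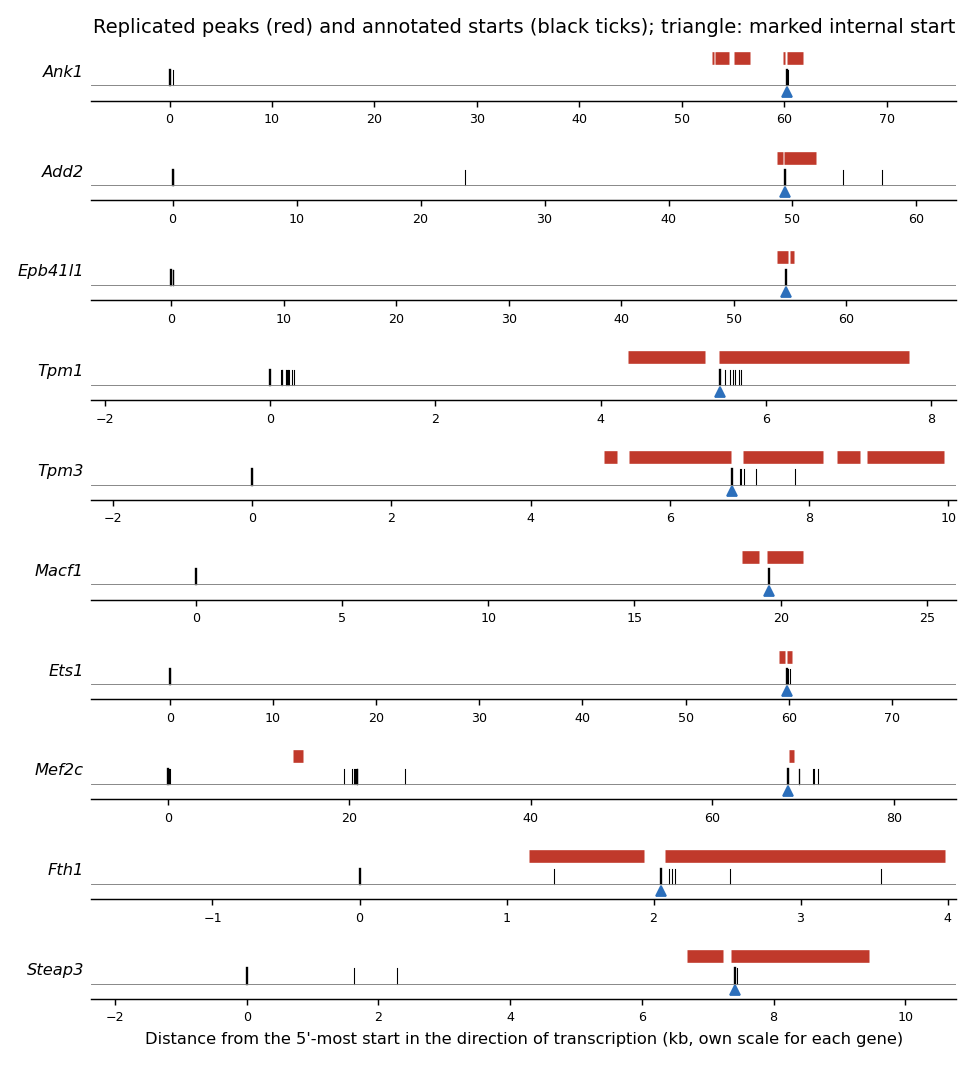
Annotated starts (black ticks), replicated peaks (red boxes) and the marked internal start (triangle) of 10 members, along each gene from its 5'-most start at 0 on an axis in kb with its own scale. The peaks lie away from the 5'-most start and beside the marked internal start, 60255 bp downstream in Ank1 and 2048 bp in Fth1.

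Of the haematopoietic transcription factors, 2 of 48 with an internal start were members (4.17%, beside 6.17% of all such genes). At the 5'-most start, 34 of the 48 were marked. Ets1, a factor of lymphoid and endothelial cells, was unmarked at a low-CpG start on chromosome 9 (0.216) and marked 59801 bp downstream at a high-CpG start (0.831). Its signals were 12.6 in replicate 1 and 12.7 in replicate 2. Mef2c, a factor of muscle, neurons and several blood lineages, was marked 68314 bp downstream with low-CpG sequence at both starts (0.296 and 0.309), and its signals were lower (5.36 and 6.06). The erythroid factors Klf1 and Tal1 were not members, and Gata1, on the X chromosome, lies outside the choice.

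In the group of haem and iron genes, 2 of 24 with an internal start were members, Fth1 and Steap3 (8.33%, beside 6.17% of all such genes). The group is a list of symbols and is not complete: the members Fbxl5 and Slc48a1, described below, were counted in other groups. Fth1 encodes the heavy chain of ferritin, the iron store of the cell, and its marked start lay only 2048 bp from a low-CpG 5'-most start, in an exon of another transcript. The first coding base was the same from both starts, the CpG ratio was 0.858 at the internal start and 0.184 at the 5'-most start, and the nearest peak lay 1156 bp from the latter. Fth1 thus stands near the limits of the choice, and it was no member when peaks within 2500 bp of a start were counted. Steap3, the reductase that turns ferric into ferrous iron in the endosomes of red cell precursors, was marked 7421 bp downstream, with ratios of 0.206 and 0.484 and signals of 9.44 in replicate 1 and 18.9 in replicate 2.

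The growth factor receptor and signalling group held 4 members of 46 (8.70%, beside 6.17% of all genes with an internal start). These were Lck, Ptpn6, Pdgfra and Src. Ptpn6 encodes the phosphatase SHP-1, which has a known pair of promoters, and its marked start lay 5560 bp downstream with low-CpG sequence at both starts (0.277 and 0.229). Its signals were 10.7 in replicate 1 and 13.8 in replicate 2, and the nearest peak lay 1425 bp from the 5'-most start. Lck, a kinase of T cells, was listed within 1000 bp of the internal start in replicate 2 alone, with a signal of 17.3, and its nearest replicated peak lay 1458 bp from the 5'-most start. The T cell markers Cd3e and Cd3g had no peak at a start, while Cd3d, a member, was marked 4037 bp inside the gene with signals of 7.20 and 9.84. Src had a peak of only 195 bp with signals of 3.75 and 3.98, and Pdgfra was marked 2784 bp downstream with signals of 8.03 and 9.27.

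The marked internal starts lay from 2032 to 1474633 bp downstream, with a median of 11452 bp and quartiles of 4908 and 35362 bp. Within 5000 bp lay 178 of the 695 (25.6%), from there to 20000 bp lay 269 (38.7%), from there to 100000 bp lay 181 (26%), and beyond lay 67 (9.64%). Internal starts close to the 5'-most start went with low-CpG 5'-most starts: 5.06% of the 5'-most starts were high-CpG in the nearest bin, 11.2% in the next, 28.7% in the next and 50.7% in the farthest. High-CpG internal starts ran the other way, at 48.3%, 47.6%, 42.0% and 19.4%. The median position of the internal start was 37.7% along the gene. Members were long genes with many starts, at medians of 43695 bp and 7 starts, beside 30198 bp and 6 starts in genes marked at the 5'-most start and 26936 bp and 4 starts in unmarked genes. More annotated starts give more chances to meet the choice. In 23 members (3.31%), Acsl5, Clcn4, Fth1 and Nsd1 among them, a start up to 2000 bp downstream was marked as well, so the distances given are not to their first marked start. In Acsl5 the start used lay 32396 bp downstream.

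**Figure D2:**
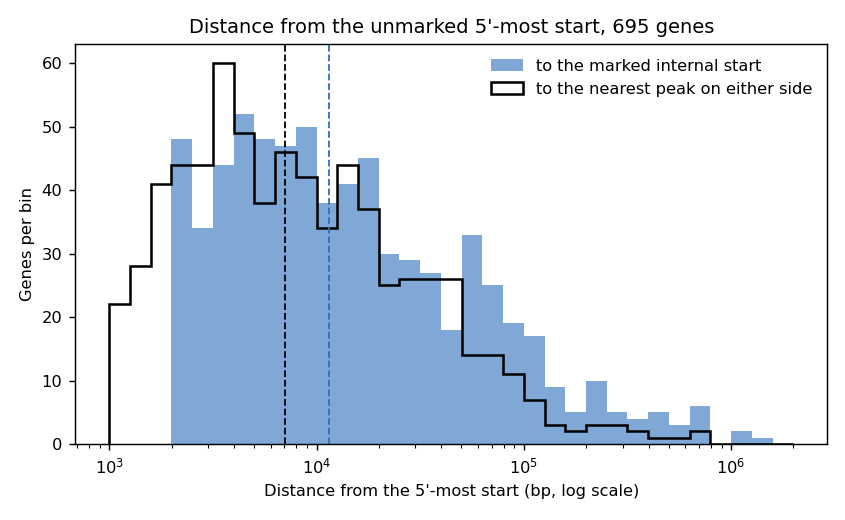
Number of members by distance in bp from the 5'-most to the nearest marked start over 2000 bp downstream, on a log axis (filled), and to the nearest replicated peak on either side (outline), with medians as dashed lines. The medians are 11452 and 7020 bp, and a tail of genes reaches past 100000 bp.

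The longest distances were in Magi2 (1474633 bp), Pde4d (1236208 bp), Naaladl2 (1172076 bp), Celf2 (787347 bp) and Fhit (708577 bp). Magi2 encodes a synaptic scaffold, Pde4d a phosphodiesterase that breaks down cyclic AMP, Celf2 an RNA-binding splicing regulator and Fhit a dinucleotide hydrolase at a fragile site. The Magi2 start lay at 99.79% of the gene length and has no coding transcript. Its peak also lay on or within 1000 bp of a start of another gene, Gm29254. Magi2 was no member when such peaks were left out, or with starts of protein-coding transcripts or of the basic set. In Celf2 no replicated peak lay closer than 787081 bp to the 5'-most start. In Naaladl2 the peak at the internal start was listed in replicate 2 alone, with a signal of 6.25, higher than 51.55% of that list. The shortest distances were in Plch2 (2032 bp), Ociad2 (2036 bp), Nsd1 (2037 bp), Asb6 (2042 bp) and Clcn4 (2045 bp), while Emid1 (1973 bp), Aspdh (1927 bp) and Rpl17 (1919 bp) fell just short of the limit.

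The choice has 2 further limits, with genes on both sides of each. The nearest replicated peak to the 5'-most start was 1004 bp away in Clcn4, 1017 bp in Dnajc18 and 1018 bp in Acsl5, and 997 bp away in the non-member Snrpc, 994 bp in Fgfrl1 and 988 bp in N4bp2l1. Over all members it ranged to 787081 bp with a median of 7020 bp, and in 135 (19.4%) it was within 2500 bp. At the internal start, the peak was 994 bp away in Rin1, 969 bp in Mmel1 and 948 bp in Tbx4, and just past the limit in the non-member Dmpk, 1004 bp away in Fam169b and 1014 bp in Palld.

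CpG class differed between the starts. At the 5'-most start, 125 members (18%) were high-CpG, 93 (13.4%) intermediate and 477 (68.6%) low-CpG, with a median ratio of 0.27. At the marked internal start, 303 (43.6%) were high-CpG, 138 (19.9%) intermediate and 254 (36.5%) low-CpG, with a median of 0.54. The ratio was higher at the internal start in 481 genes (69.2%) and lower in 214 (30.8%). In genes marked at the 5'-most start, 76.9% of the 5'-most starts and 5.13% of the internal starts were high-CpG, and 7.18% had the higher ratio inside. In genes with no marked start the values were 24.5%, 4.47% and 37.8%. The internal start of a gene was its first marked one over 2000 bp downstream where it had any, as all members do by choice, and otherwise the nearest over 2000 bp downstream, so these shares are given side by side without a test. The 5'-most starts of members had a class distribution closer to that of unmarked genes, of which 60.9% were low-CpG, than to that of marked genes, of which 8.26% were. Members and unmarked genes were both chosen for having no peak at that start.

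**Figure D3:**
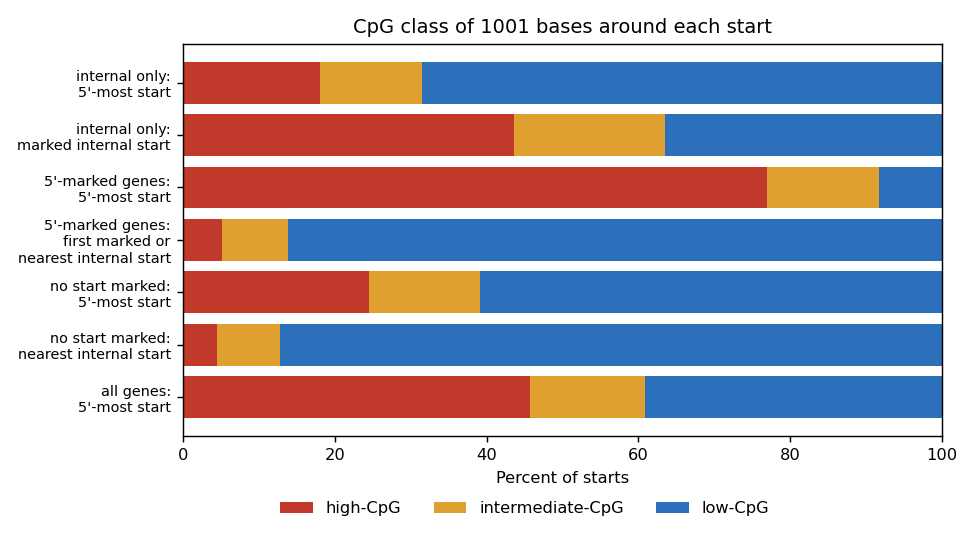
Percent of starts in each CpG class, for the 5'-most and the internal start of members, of genes marked at the 5'-most start and of genes with no marked start, and for the 5'-most start of all protein-coding genes. High-CpG starts make up 43.6% of the members' internal starts and 18% of their 5'-most starts, whereas genes marked at the 5'-most start hold 76.9% there.

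The most frequent pair was a low-CpG 5'-most start with a high-CpG internal start, in 239 members (34.4%), a pair found in 1.25% of genes marked at the 5'-most start and 2.24% of unmarked genes. Srpk2, Rara, Mrps24, Acer3, Dgcr2 and Trim28 had the highest signals in it. The median distance of this pair was 8141 bp, the median signal of the replicated list was 13.9 and the median width was 1388 bp. Annotation support was uneven: 78.2% of these internal starts and 30.5% of these 5'-most starts had a transcript of support level 1, the level at which every splice junction is backed by a full-length RNA. Among the 66 members with the reverse pair, a high-CpG 5'-most start and a low-CpG internal start (9.50%, beside 67.8% of genes marked at the 5'-most start), the shares were 28.8% and 68.2%. In these the median distance was 62897 bp, the median signal 6.47 and the median width 721 bp. Patj, Kalrn and Tanc1 led this pair by signal.

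Both starts were low-CpG in 157 members (22.6%, beside 55% of unmarked genes), with a median distance of 8597 bp and a median signal of 7.47. Both were high-CpG in 30, with Casz1 the strongest, at a median distance of 36926 bp and a median signal of 15.5. The plot of CpG ratios shows every member, with most points above the line of equal ratio.

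**Figure D4:**
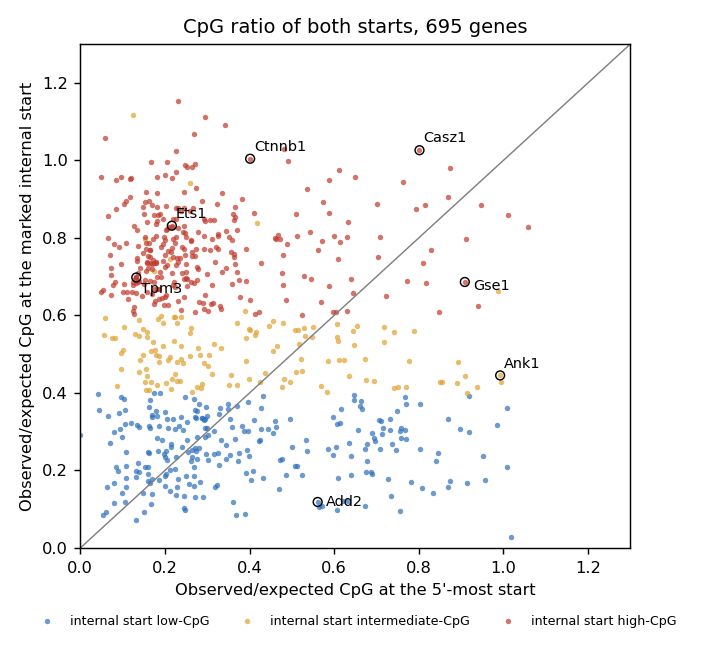
Observed to expected CpG ratio at the 5'-most start (x axis) and at the marked internal start (y axis) for 695 members, a point for each gene coloured by the class of the internal start, with the diagonal of equal ratio and some named genes circled. Above the diagonal lie 481 genes, and the densest cloud has a low ratio at the 5'-most start and a high one inside.

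Peaks at the internal starts stood mostly in the upper part of the replicated list. Their median signal in the replicated list was 11.3, higher than 74.0% of all peaks in it, with a range from 2.19 to 30.9, and the median width was 1134 bp, beside 603 bp for the whole list. The choice asked only for a peak, not for its strength, but the strongest peak within 1000 bp of the start was taken. Taken the same way, peaks at the 5'-most starts of marked genes had a median signal of 13.9 and a median width of 1401 bp. By CpG class of the internal start the median signal was 14.5 for high, 11.9 for intermediate and 7.10 for low, and at the 5'-most starts of marked genes it was 14.4, 12.5 and 10.4. The widths followed, at 1419, 1161 and 711 bp for members and 1470, 1243 and 1016 bp for marked 5'-most starts. High-CpG internal starts thus had a median close to that of marked high-CpG 5'-most starts, and low-CpG ones had narrower and weaker peaks.

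**Figure D5:**
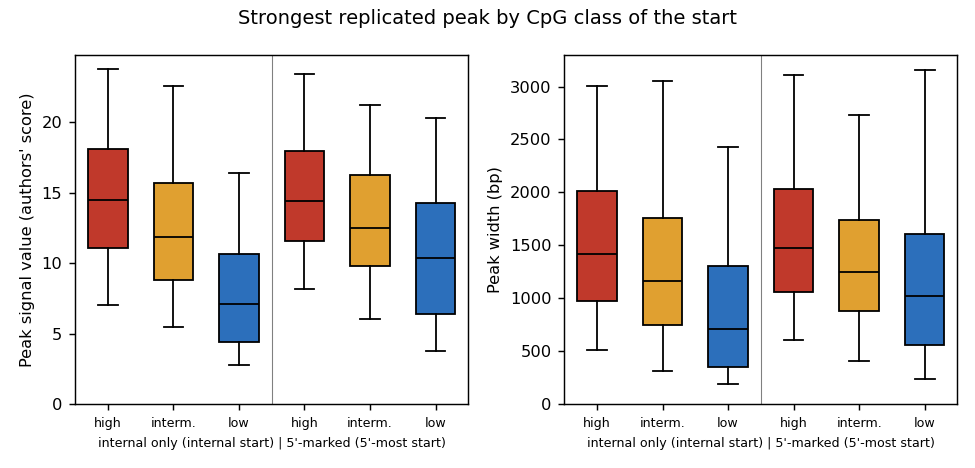
Signal value (the authors' score) and width in bp of the strongest replicated peak, by CpG class of the start, for members at the internal start and for marked genes at the 5'-most start. Boxes span the quartiles with the median as a line, whiskers run from 5 to 95% of the genes, and members' medians fall from 14.5 to 7.10 between high- and low-CpG starts.

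The summit of the strongest peak was downstream of the internal start in 522 genes (75.1%) and upstream in 173, with a median offset of 229 bp. The choice itself favours a downstream summit, since the first of several marked starts was used. In the 236 members with a single marked start past 2000 bp, the summit was downstream in 151 (64%), with a median offset of 142 bp. At the marked internal starts of genes also marked at the 5'-most start, the median offset was -200 bp. The start itself lay inside a peak in 362 members (52.1%), in a gap between peaks on either side in 146 (21.0%), as in Ank1, Tpm3 and Ptpn6, and beside peaks on 1 side only in 187 (26.9%). The window of 1000 bp admitted peaks that did not reach it.

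The replicate lists gave the same picture for most members, though the replicated list was derived from them. A peak at the internal start stood in both replicate lists for 666 members, in replicate 1 alone for 2 and in replicate 2 alone for 27. A peak at the 5'-most start stood in either replicate list for 26 and in both for 4, so 642 (92.4%) had an internal peak in both lists and none at the 5'-most start in either. Chosen anew from each replicate list, the members were 704 in replicate 1 and 735 in replicate 2 (719.5 ± 21.9, SD, n = 2), and 656 genes were chosen by both. For 6 members the strongest internal peak had a q-value above 0.05.

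The highest signals at an internal start were in Srpk2 (30.9), Casz1 (30.2), Cfap74 (28.8), Rara (26.4), Mrps24 (26.4), Acer3 (26.3), Crygn (25.99), Ubash3b (25.7), Dgcr2 (25.5) and Ctnnb1 (25.3). Srpk2 encodes a kinase of splicing factors, and its low-CpG 5'-most start (0.205) lay 8169 bp from the marked high-CpG start (0.822). The signals were 17.4 in replicate 1 and 38.1 in replicate 2, and the internal start has no coding transcript. Casz1, a zinc finger transcription factor, was high-CpG at both starts, 96720 bp apart, with signals of 20.2 and 35.3. Rara encodes retinoic acid receptor alpha and is known for alternative promoters. Its marked start was 9880 bp downstream, with ratios of 0.375 and 0.692 and signals of 14.2 and 31.1. The nearest replicated peak lay 2450 bp from the 5'-most start of Rara. Ctnnb1, which encodes beta-catenin of cell adhesion and Wnt signalling, was marked 4184 bp downstream of an intermediate start (0.401), at a start with a ratio of 1.00 and signals of 14.2 and 30.7. In all 10 the signal exceeded that of at least 93.15% of replicate 1 peaks and 95.56% of replicate 2 peaks. The peaks of Srpk2, Cfap74 and Dgcr2 also lay on or within 1000 bp of a start of another gene, protein-coding for Dgcr2. Cfap74 and Dgcr2 were no members when such peaks were left out. The internal starts of Cfap74, Mrps24 and Crygn have no coding transcript either, and that of Crygn lay at 95.4% of the gene length.

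The widest peaks at an internal start were in Gse1 (8291 bp), Ptch1 (7267 bp), Dnajc6 (5356 bp), Pde4d (5081 bp) and Frmd4a (4005 bp). Ptch1 encodes the receptor for Hedgehog ligands and Dnajc6 encodes auxilin, which uncoats clathrin vesicles. In Gse1 the peak lay at chr8:120487182-120495472, 259991 bp downstream of a high-CpG 5'-most start (0.909) that had no peak in either replicate. In Pde4d the peak lay at a low-CpG start (0.315), with signals of 22.0 in replicate 1 and 16.3 in replicate 2. Width and signal did not rank the same genes first: no gene stood in both of these lists.

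Annotation described the starts as follows. In 585 members (84.2%) the marked internal start lay in an intron of another transcript of the gene, in 109 (15.7%) in an exon, and in 1 outside the other transcripts. The internal start used lay in an exon in 40.8% of genes marked at the 5'-most start and 44.9% of unmarked genes. Both starts had a protein-coding transcript in 373 members, the 5'-most alone in 166, the internal alone in 118 and neither in 38. Support level 1 stood at the internal start alone in 248, at the 5'-most alone in 156 and at both in 152. At the 5'-most start it stood in 44.3% of members, 71.1% of genes marked there and 50.7% of unmarked genes. A transcript of the GENCODE basic set stood there in 57.1%, 78.6% and 80.2%. At the internal start used, the shares with support level 1 were 57.6%, 23.2% and 25.8%. In 349 members with coding transcripts whose coding start is annotated at both ends, transcripts of both starts shared a first coding base in 168. In 163 of these the outermost first coding base was also the same, and in 5, Fhit among them, it differed. In the rest no first coding base was shared, and the outermost lay further downstream from the internal start in 125 and further upstream in 56. Among 1357 genes marked at the 5'-most start that could be compared, 750 shared a first coding base. It lay further downstream in 503 and further upstream in 104. Among 1986 such unmarked genes the counts were 1399, 463 and 124.

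Some marked internal starts share their peak with another gene. The peak lay on or within 1000 bp of a start of another gene in 133 members (19.1%), and of another protein-coding gene in 61 (8.78%). Peaks so placed are called shared, though they need not reach the other start. This share was not counted for the 5'-most starts of marked genes, so it is not known to be particular to members. For Arhgef4 the other gene is an entry of the same symbol. Desi1 and Xrcc6 are an example chosen after the values were seen. They overlap on opposite strands of chromosome 15, and each counts as a member. The same peak (signal 23.4) lies on or within 1000 bp of an internal start of both. The 5'-most start lay inside another coding gene in 103 members (14.8%), beside 12.7% of genes marked there and 6.28% of unmarked genes. In 101 members (14.5%) at least 10% of the 32-base words around the 5'-most start occur elsewhere in the genome, where short reads cannot be placed with certainty. This share was 6.34% in genes marked at the 5'-most start and 17.9% in unmarked genes. At the internal start it held in 57 members (8.2%), beside 16.4% and 24.6%. The part of these features in the missing or shared peaks was not tested.

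By function the members were spread over many groups. Of 25 groups of genes, drawn up by symbol, 171 members fell in at least 1, or 7.06% of the 2422 genes of those groups with an internal start, beside 6.17% of all genes with one. After the red cell group, the highest share among groups with at least 5 members was in cyclic nucleotide signalling, with 8 of 45 (17.78%). These were the phosphodiesterases Pde4d, Pde2a, Pde4c and Pde4b, which break down cyclic nucleotides, the kinase anchors Akap2, Akap7 and Akap12, and Pde4dip, which binds a phosphodiesterase. Pde2a was marked 28829 bp downstream, with ratios of 0.265 and 0.401 and signals of 13.5 in replicate 1 and 21.9 in replicate 2.

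Metallopeptidases held 5 of 50 (10%), beside 6.17% of all genes with an internal start. Adamts20 and Adamts13, the protease of von Willebrand factor, were the strongest. Adhesion molecules held 6 of 65 (9.23%), with Itga6, an integrin chain that binds laminin, at the head.

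Ubiquitin ligases and adaptors held the most members, 22 of 250 (8.80%, beside 6.17% of all genes with an internal start). They were also the group with the most genes with an internal start. Trim28, the corepressor of KRAB zinc finger proteins, was marked 25038 bp downstream of a low-CpG start (0.120), at a high-CpG start (0.954) with signals of 18.1 in replicate 1 and 27.2 in replicate 2. Its 5'-most start has no coding transcript, and Trim28 was no member when only starts of protein-coding transcripts were counted. Fbxl5, the iron-sensing adaptor that directs the breakdown of iron regulatory proteins, was marked 39488 bp downstream, at a ratio of 0.926 and with signals of 23.6 and 25.6. Both exceeded at least 98.01% of the peaks of replicate 1 and 98.4% of those of replicate 2.

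Receptors coupled to G proteins and their regulators held 8 of 93 (8.60%), headed by Gnas, the stimulatory alpha subunit of an imprinted locus with many starts, and by the adhesion receptor Adgrg1. Gnas was marked 43250 bp downstream, at a start with a high ratio (0.840) as at the 5'-most start (0.633). Chromatin enzymes and remodellers held 9 of 113 (7.96%), and the share of all genes with an internal start was 6.17%. Among them Phf21a, a reader of unmethylated H3K4, was marked 90989 bp downstream, and Brd3, a bromodomain reader of acetylated histones, 31976 bp downstream with ratios of 0.167 and 0.995. Dnmt1, the maintenance DNA methyltransferase and a member chosen here after its values were seen, has a known germ-line start. It was marked 6909 bp from a low-CpG 5'-most start (0.0589), at an intermediate start (0.593), with signals of 8.59 and 6.57.

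Shares near or below that of all genes were found for serine/threonine kinases (11 of 163, led by Stk3 and Mast4), phosphatases (8 of 120, led by Ppp2r1b and Ppm1a), ion channels (9 of 140, led by Clcn4 and Cacna1a) and solute carriers (13 of 243, led by Slc7a4 and Slc48a1). Slc48a1 carries haem out of lysosomes, and its marked start lay 5835 bp downstream with ratios of 0.178 and 0.734 and signals of 14.5 and 18.4. Zinc finger proteins of the Zfp, Zbtb and Zscan names held 12 of 248 (4.84%, led by Zfp516 and Zfp119b), and Rab regulators and membrane traffic 9 of 193 (4.66%, led by Dennd6a and Rab18). Genes of lymphoid and myeloid surface and granule proteins held 1 of 20, Cd3d.

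The letters AGATAA, which hold the GATA core bound by erythroid GATA factors, were searched on both strands from 250 bases before to 50 after each start. They stood at 10.9% of the members' internal starts and 9.93% of their 5'-most starts, beside 9.94% of all 5'-most starts of protein-coding genes. Among low-CpG internal starts of members the share was 20.1% (51 of 254), beside 16.3% of all low-CpG 5'-most starts and 17.7% of the low-CpG internal starts of unmarked genes. The letters stand in the window of the internal start of Add2 and of the 5'-most start of Tpm3, the former marked and the latter not. TATAAA stood at 8.49% of the members' internal and 10.8% of their 5'-most starts, beside 12.7% of all 5'-most starts. A match is a string of letters and not a bound site.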

How the data were processed

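H3K4me3 ChIP-seq peaks of 2 replicate MEL libraries (1 group) were analysed. The authors deposited peak lists in narrowPeak format: 1 per replicate, 1 pooled and 1 replicated, per the notes deposited with the samples, all on mm10. The signal value is a score made by the authors, who also deposited −log10 p and −log10 q per peak. The aligner, the peak caller and the definition of the signal value were not given in the sources used here. A list on mm9 was not used here. Depth is unknown, so no interval on a missing peak was given. Peaks on chromosomes 1 to 19 were compared with GENCODE M21 starts (window 1000 bp, minimum distance 2000 bp), on GRCm38.

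Where several starts over 2000 bp downstream were marked, the nearest to the 5'-most start was used, with the strongest replicated peak there. CpG ratios came from 500 bases on either side of a start. No test between groups was made: the members and gene lists were chosen with earlier results of these data known, and some list patterns were corrected after the members were seen. Named genes are the members of the 4 groups of haematopoietic factors, red cell membrane, haem and iron, and growth factor signalling, the 10 highest by signal, 5 widest, 5 longest and 5 shortest distances, the genes nearest each limit, and the 2 strongest of other groups with at least 5 members. Calculations used Python 3.11.15, numpy 2.4.6, pandas 2.3.3, scipy 1.17.1, numba 0.67.0 and matplotlib 3.10.9, and the choice of members was tested on simulated data. Alternatives were other windows and distances, other lists and stricter transcript sets. The closing section gives their effect. The result for 1 gene group is not reported here.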

Additional observations from a re-analysis of the deposited data

How the results depend on the processing

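The number of genes marked only at internal starts depended most on which annotated starts were counted. It was 307 with starts of the GENCODE basic set, sharing 302 genes with the 695, and 242 with starts of support level 1 only, an alternative added after the data were seen, sharing 232. Under the other alternatives it ranged from 490, with starts of protein-coding transcripts, to 735. Trim28, Ets1, Slc48a1, Mrps24, Crygn and Cfap74 were no members with starts of protein-coding transcripts or of the basic set. Srpk2, Casz1, Ctnnb1 and Ubash3b were no members with the basic set. Rara, Ptpn6, Lck and Fth1, among others, were no members with a window of 2500 bp. With support level 1, Rara and Fth1 were no members. Ank1, Add2, Tpm3, Mef2c and Pde4d were members under every alternative choice. The percent of genes with an internal start that were marked only internally, 6.17%, was 5.88% with a window of 2500 bp, 5.89% and 5.96% with minimum distances of 1000 and 5000 bp, 5.94% with −log10 q of at least 5, 7.63% with coding transcripts, 7.92% with the basic set and 5.18% without peaks shared with another gene. From the list of either replicate alone it was 6.25 to 6.52%.

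The median distance of 11452 bp was 10789 and 15358 bp with windows of 500 and 2500 bp, 10628 and 18110 bp with minimum distances of 1000 and 5000 bp, 9992 bp with coding transcripts, 12638 bp without shared peaks, 15356 bp with support level 1 and 11868 to 12524 bp from either replicate alone.

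High-CpG 5'-most starts (18%) were 16.7% and 22.8% with windows of 500 and 2500 bp, 21.7% with the 5000 bp minimum, 18.5% in the pooled list, 14.9% with coding transcripts, 15.0% with the basic set, 19.2% without shared peaks, 20.4% from 250 bases on either side, 20.5% with under 10% repeated words, 17.1% without incomplete 5' ends (added after the data were seen), 17.8% with support level 1 and 18.6 to 18.9% from either replicate. High-CpG internal starts (43.6%) were 47.5% and 35.0% with those windows, 40.6% with the 5000 bp minimum, 46.3% with the −log10 q limit, 48.8% with coding transcripts, 50.2% with the basic set, 38.7% without shared peaks, 46.6% from 250 bases on either side, 41.2% with under 10% repeated words and 40.4 to 42.6% from either replicate. In every one of these alternatives more members were high-CpG at the internal than at the 5'-most start. Each alternative kept the choice of an unmarked 5'-most and a marked internal start, so this direction is no independent support. In the other genes, 76.9% of marked 5'-most starts were high-CpG, beside 24.5% in genes with no marked start. No paired analysis was possible because the series has 1 group. A missing peak can come from low depth, which these lists do not show.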
